A study of Caenorhabditis elegans with 37 samples.

Results

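The Hox cluster genes of Caenorhabditis elegans are 6 homeobox genes on chromosome III: ceh-13, lin-39, mab-5, egl-5, nob-1 and php-3. They were chosen by name, not by their values, and each symbol matched a single gene among the 30631 genes counted. All 6 passed the filter on low counts, as did 15181 genes in all. In the WBcel235 annotation lin-39 (WBGene00003024) spans III:7528641-7536632 on the minus strand and ceh-13 (WBGene00000437) spans III:7555660-7558041 on the plus strand. Next come mab-5 (WBGene00003102) at III:7776835-7783454 on the minus strand and egl-5 (WBGene00001174) at III:7814374-7817141 on the plus strand. The remaining genes lie far to the right and on the minus strand, php-3 (WBGene00004024) at III:12074218-12077556 and nob-1 (WBGene00003779) at III:12077793-12084316. The gap is 19 kb between lin-39 and ceh-13, 219 kb between ceh-13 and mab-5, and 30.9 kb between mab-5 and egl-5. Between egl-5 and php-3 lie 4260 kb, whereas only 236 bases separate php-3 from nob-1.

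Hox genes encode homeodomain transcription factors that give cells along the body axis their regional identity, and in nematodes they also act late, inside differentiated neurons. The gene ceh-13 is the labial-class member, lin-39 acts in the mid-body, where it keeps ventral cord motor neurons and vulval precursors on course, and mab-5 acts further back, where it directs the migration of neuroblast descendants. The Abdominal-B-like genes egl-5, nob-1 and php-3 act in the tail, with nob-1 and php-3 known from patterning of the posterior embryo. Hox proteins bind DNA with PBC and MEIS class homeodomain partners, are switched on in part by Wnt signalling, and are kept off elsewhere by Polycomb-type repressors.

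RNA was sequenced from 37 libraries of sorted worm cells, to set single neuron types against each other and against a pan-neuronal and an all-cell reference. The head types were the amphid chemosensory neurons ASG (4 libraries), AWA (4) and AWB (5) and the command interneuron AVE (3), whose cell bodies lie around the nerve ring. The trunk types were the GABAergic cord motor neurons DD (3) and VD (4) and the body-wall nociceptor PVD (2). AVG (3), an interneuron with its cell body at the front of the ventral cord and a process that runs the length of the cord, was kept apart from both. The pan-neuronal cells (5) were marked through rab-3, and the all-cell reference (4) was gated by viability stains only. Every group is labelled untreated, from worms raised on 8P agar with NA22 bacteria. The labels used here give no strain, age, sex, stage, or driver of the marker for a single type. No label says that the libraries of a group were grown separately, so p-values measure the spread between these libraries, which may be technical.

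Library totals ranged from 251586 to 5415925 counts, lowest in AWB (251586 to 951675), AVG (435104 to 1106751) and PVD (469314 and 763634) and highest in VD (2254581 to 5415925) and pan-neuronal libraries (3124136 to 5252601). Single markers were high under most labels. Mean levels were 8650 CPM (counts scaled to the library total, corrected by a TMM factor) of gcy-21 in ASG, 5740 of odr-10 in AWA, 1370 of srd-23 in AWB, 175 of unc-42 in AVE and 1250 of nmr-2 in AVG. They were 4540 and 2550 of unc-25 in DD and VD, and 3810 of des-2 in PVD. Several lists did not separate related types. The summed AVE list was 0.0415 to 0.101% of counts in AVE and 0.102 to 0.413% in AVG, where glr-1, nmr-1, nmr-2 and glr-2 of that list had higher means, while unc-42 and fax-1 were 175 and 53.8 CPM in AVE and 4.36 and 0.295 in AVG. The summed VD list was 0.281 to 0.465% in VD and 0.567 to 0.752% in DD, although its member unc-55 was 60.6 CPM in VD and 25.1 in DD. The gene str-44, listed for AWB, was 1080 CPM in AWA and 20.5 in AWB. In AVG, acr-5 and del-1 of the cholinergic motor neuron list stood at 496 and 415 CPM, with unc-3, unc-4 and vab-7 of the same list at 3.37, 4.45 and 2.82. AWA 20 and AWB 51 held the smallest shares of pan-neuronal marker counts of their groups, 0.235% beside 0.694 to 0.876% in the other AWA libraries and 0.123% beside 0.769 to 1.30% in the other AWB libraries. Pan-neuronal 1 differed from the other pan-neuronal libraries by a chi-square of 28.8 to 34.2 per degree of freedom (2.22 to 3.52 among the others). Its touch neuron marker share was 0.234% beside 0.629 to 0.702%, and its ASG marker share 0.0903% beside 0.0218 to 0.0248%. Its AWA marker share was 0.0501% beside 0.00323 to 0.00400%. All-cell 27 held 0.264% of touch neuron markers beside 0.0407 to 0.0661% in the other all-cell libraries. Its summed AVE list was 0.195% beside 0.00652 to 0.00928%, above every AVE library. Without pan-neuronal 1 a single Hox call changed, that of php-3 in ASG, described with that comparison, and without all-cell 27 none did.

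The position comparison set the mean log2 level of DD, VD and PVD against that of ASG, AWA, AWB and AVE. Of the 6 Hox genes, 4 were called higher in the trunk types and 0 lower in edgeR's quasi-likelihood fit, at an adjusted p under 0.05, where 13.4% of all genes tested were called higher and 13% lower. The called genes were lin-39, mab-5, ceh-13 and egl-5. By size of log2 difference lin-39 ranked 7th of 15181 genes, mab-5 38th, ceh-13 64th and egl-5 699th. The tail genes nob-1 and php-3 were not called, with log2 differences of 0.22 ± 0.54 (SE) and -0.23 ± 0.54 (edgeR adjusted p = 0.821 and 0.808). The median log2 difference over all genes was 0.114 in this comparison, 0.009 with DESeq2 size factors and 0.305 with library totals alone. In sorted bulk RNA fewer cells of a type and less RNA per cell cannot be told apart.

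**Figure D1:**
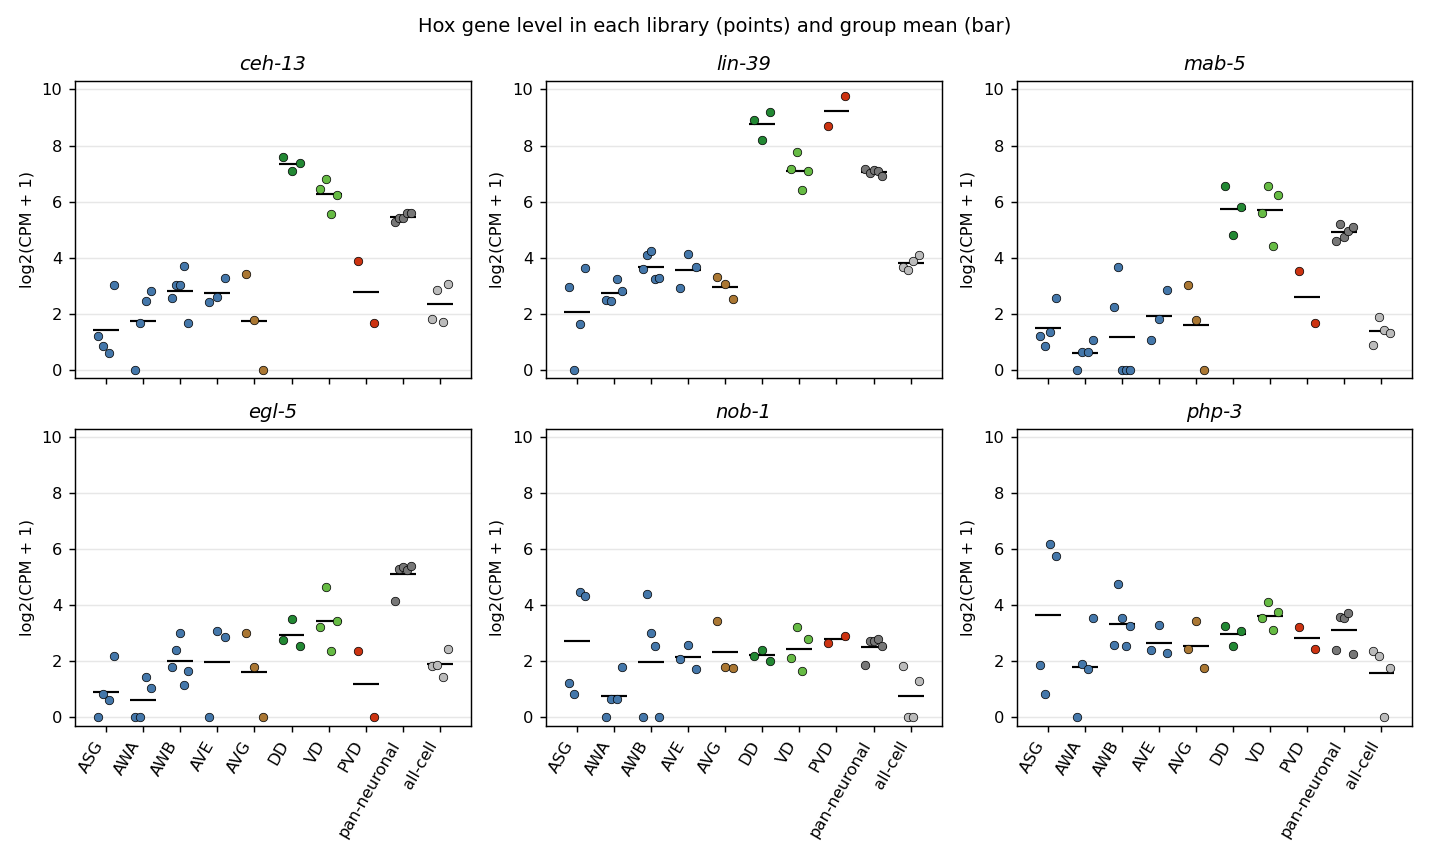
Level of each Hox gene, as log2(CPM + 1), in each of the 37 libraries by sorted group; points are libraries and bars are group means of the plotted values. The lin-39 points of DD, VD and PVD lie above every head and AVG point, ceh-13 and mab-5 are high in DD and VD and low in PVD, and php-3 and nob-1 spread widely within ASG and AWB.

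The mid-body gene lin-39 had the highest level per kb of the cluster in each trunk type. It read 415 and 875 CPM in the PVD libraries, 477, 294 and 586 CPM in the DD libraries and 141, 216, 85.1 and 134 CPM in the VD libraries. Over the 16 head libraries it ran from 0 through a median of 8.45 to 17.7 CPM. Every trunk library was thus above every head library, and the lowest trunk value was VD 79. The trunk log2 difference was 5.43 ± 0.27 (edgeR adjusted p = 1.95e-16). Taken type by type against the head mean, the log2 difference was 6.32 ± 0.33 in PVD, 5.81 ± 0.31 in DD and 4.16 ± 0.29 in VD (edgeR adjusted p = 2.49e-16, 3.3e-16 and 6.64e-13). These comparisons share the head libraries. The head counts themselves were small but not nil, with 30 reads summed over ASG, 46 over AWA, 36 over AWB and 34 over AVE. In AVG lin-39 was 8.84, 7.37 and 4.81 CPM, inside the head range.

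The order of group means for lin-39 was PVD (645 ± 325 CPM, SD, n = 2), DD (452 ± 148, n = 3), VD (144 ± 54.2, n = 4), pan-neuronal (133 ± 8.18, n = 5), all-cell (13 ± 2.33, n = 4), AWB, AVE, AVG, AWA and ASG (5.03 ± 5.05, n = 4). PVD and DD libraries overlapped, DD and VD libraries did not, and VD libraries overlapped with the pan-neuronal ones. From the all-cell group down, each group overlapped with the next.

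The labial-class gene ceh-13 followed the GABAergic motor neurons. It was 190, 134 and 166 CPM in DD and 87.2, 112, 46.5 and 74.2 CPM in VD, but 13.6 and 2.18 CPM in PVD. Head libraries spanned 0 to 12 CPM with a median of 4.74. No head library reached the lowest DD or VD library, while PVD lay within or just above the head range. The log2 difference from the head mean was 5.22 ± 0.39 in DD and 4.19 ± 0.37 in VD (edgeR adjusted p = 2.28e-12 and 2.56e-10) against 1.03 ± 0.68 in PVD (edgeR adjusted p = 0.462). The 3 trunk types together gave 3.48 ± 0.38 (edgeR adjusted p = 1.68e-08), which lost its call without PVD 62 (2.73 ± 0.98, edgeR adjusted p = 0.0608).

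The more posterior gene mab-5 had the same 2 high types. It was 93.1, 27.2 and 54.5 CPM in DD and 47.4, 93.7, 20.2 and 73.5 CPM in VD, and 10.5 and 2.18 CPM in PVD. The head libraries ran from 0 to 11.6 CPM around a median of 1.07, with 4 of them at 0 counts, and the highest was AWB 51. DD and VD libraries all lay above the head range and PVD lay inside it. The log2 difference was 4.79 ± 0.47 in DD and 4.81 ± 0.44 in VD (edgeR adjusted p = 1.46e-09 and 4.5e-10), and 1.76 ± 0.79 in PVD (edgeR adjusted p = 0.202). The PVD value became 2.30 ± 0.77 (edgeR adjusted p = 0.0463) without AWA 20 and AWB 51.

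The tail gene egl-5 was low in every single type. It was 5.73, 10.3 and 4.82 CPM in DD, 8.42, 24.4, 4.13 and 9.74 CPM in VD, and 4.19 and 0 CPM in PVD, with the 16 head libraries at 0 to 7.56 CPM around a median of 1.45. DD and VD overlapped with the head range. Against the head mean the log2 difference was 2.55 ± 0.51 in VD (edgeR adjusted p = 0.000299) and 1.85 ± 0.58 in DD (edgeR adjusted p = 0.0292). The DD call was lost without ASG 13 or 14, AWB 50, 53 or 54, or DD 83 or 84 (1.39 to 1.96, edgeR adjusted p from 0.0547 to 0.277), and in a fit of these groups alone (1.77 ± 0.72, edgeR adjusted p = 0.127). For the 3 trunk types together the value was 1.61 ± 0.54 (edgeR adjusted p = 0.0251). It turned to -0.32 ± 1.14 (edgeR adjusted p = 0.963) without PVD 62, when PVD rests on PVD 63 with 0 counts. Without ASG 13 or 14, AWB 53, DD 84 or VD 78 it was 1.38 to 1.46 (edgeR adjusted p from 0.0509 to 0.0569), and in these groups alone 1.47 (edgeR adjusted p = 0.0733).

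Taken type by type, 4 of the 6 genes were called higher in DD (6.75% of all genes tested), 4 in VD (20%) and 1, lin-39, in PVD (5.39%). None was called lower in these comparisons, in which 6.46%, 13.1% and 2.97% of all genes were.

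**Figure D2:**
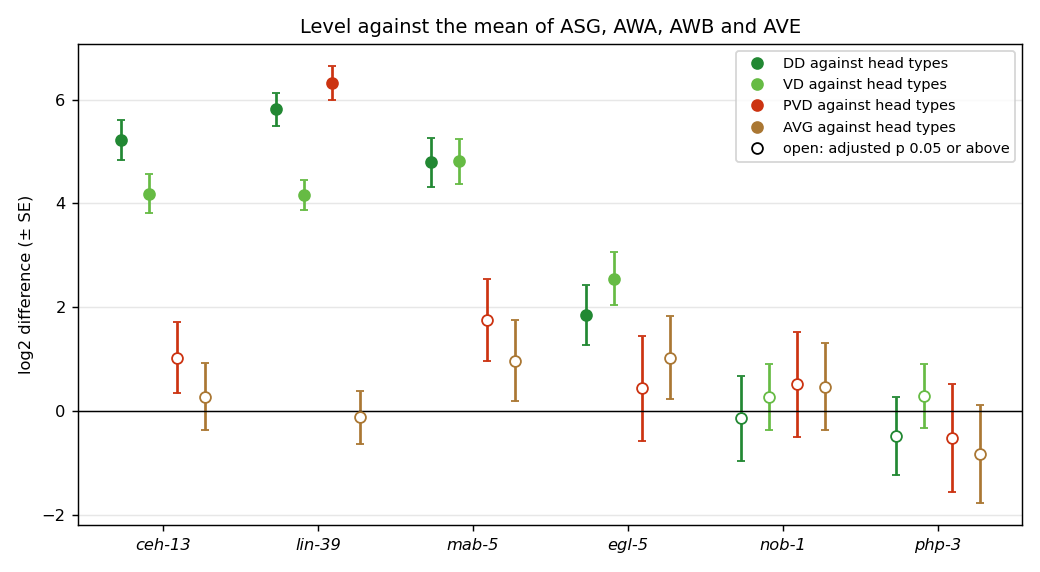
Log2 difference (± SE) of each Hox gene in DD, VD, PVD and AVG from the mean of the head types ASG, AWA, AWB and AVE; filled points had an edgeR adjusted p under 0.05. DD and VD points are filled for ceh-13, lin-39, mab-5 and egl-5, the PVD point for lin-39 (6.32), and no AVG point.

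Markers of other cells that could carry Hox transcripts moved with some of these groups. The counts of called markers stand beside 13.4% of all genes tested called higher in the trunk types and 13% lower. Of 12 hypodermal genes 9 were called higher in the trunk types and 0 lower, and ventral hypodermis is a known site of Hox expression. Their summed share of counts was 0.142 to 0.176% in VD, 0.0534 to 0.109% in DD, 0.0874 and 0.117% in PVD, 0.105 to 0.200% in AVE, 0.0577 to 0.172% in AVG, 0.0203 to 0.0354% in ASG, 0.0138 to 0.104% in AWA and 0.0479 to 0.131% in AWB. The AVE libraries overlapped with those of VD in this share, and their lin-39 levels were 6.50, 16.4 and 11.7 CPM. Cholinergic cord motor neurons, neighbours of DD and VD that also use Hox genes, had 4 of 10 markers called higher and 2 lower in the trunk types. Their summed share was 0.0143 to 0.0224% in DD, 0.0170 to 0.0314% in VD and 0.0389 and 0.0567% in PVD. It was 0.0464 to 0.0822% in AVE, 0.0537 to 0.134% in AVG and 0.0131 to 0.0633% in AWB. In AWA it was 0.0136 to 0.0266% and in ASG 0.00411 to 0.00607%, below every DD and VD library. In AVG acr-5 and del-1 of this list were high while unc-3, unc-4 and vab-7 were low, so the share is no measure of these motor neurons alone. Of 6 touch neuron markers 4 were called higher in the trunk types and 0 lower (median log2 difference 1.67), with a summed share of 0.136 and 0.330% in PVD, 0.0406 to 0.0694% in DD, 0.0391 to 0.0685% in VD, 0.107 to 0.196% in AVE and 0.0125 to 0.0584% in the amphid types. Of 14 body-wall muscle genes 1 was called higher and 0 lower. The part of these cells in the Hox levels was not tested.

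The last genes of the cluster showed another pattern. In ASG php-3 was 2.66, 0.803, 71.3 and 52.6 CPM in ASG 13, 14, 15 and 16, and nob-1 was 1.33, 0.803, 21.1 and 19.2 CPM in the same order. In AWB php-3 was 4.94, 26.0, 10.6, 4.80 and 8.59 CPM, with AWB 51 the highest, and nob-1 was 0, 20.2, 7.09, 4.80 and 0 CPM. In AWA php-3 was 0, 2.78, 2.27 and 10.7 CPM, with AWA 20 the highest. ASG 15, ASG 16 and AWB 51 were the highest 3 of the 37 libraries for both genes, while ASG 13 and 14 lay among the lowest, so that single libraries and not sorted types set the extremes. In all other groups php-3 stayed between 0 and 16.4 CPM and nob-1 between 0 and 9.73 CPM.

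The summed share of intestinal markers was the highest of its group in ASG 15, AWB 51 and AWA 20, as was php-3, but single markers differed. The summed share of 11 intestine genes was 0.0740, 0.0400, 0.461 and 0.358% in ASG 13, 14, 15 and 16, and the intestinal GATA factor gene elt-2 was 2.66, 0, 33.8 and 17.1 CPM. In AWB 51 elt-2 was 7.23 CPM and in AWA 20 it was 11.4 CPM. It was 14.7 CPM in DD 86 and 14.8 CPM in VD 81, where php-3 was 7.44 and 12.6 CPM. The gene elt-7 of the same list was 0, 0, 8.98 and 10.7 CPM in ASG 13, 14, 15 and 16. In AWB it went the other way, with 0 reads in AWB 51 and 52 and 1.24, 2.40 and 2.15 CPM in AWB 50, 53 and 54. In AWA 20 elt-7 was 3.20 CPM. The intestine share was 1.39% in AWA 20 beside 0.00651 to 0.228% in the other AWA libraries, and 0.309% in AWB 51 beside 0.0505 to 0.146% in the other AWB libraries. In VD, where php-3 was 7.60 to 16.4 CPM, it was 0.284 to 0.531%. In pan-neuronal libraries, where php-3 was 3.77 to 12.3 CPM, it was 0.0324 to 0.0568%. Markers of other tissues were also high in some of these libraries. Pharynx markers summed to 0.373% in AWB 51 beside 0.0161 to 0.0537% in the other AWB libraries, and to 0.173% in AWA 20 beside 0.00196 to 0.0305% in the other AWA libraries. Body-wall muscle markers summed to 3.25% in AWB 51 beside 0.817 to 1.43%, and to 2.66% in ASG 15 beside 0.660 to 1.07% in the other ASG libraries. The part of intestinal, pharyngeal or muscle RNA in the php-3 and nob-1 levels was not tested.

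**Figure D3:**
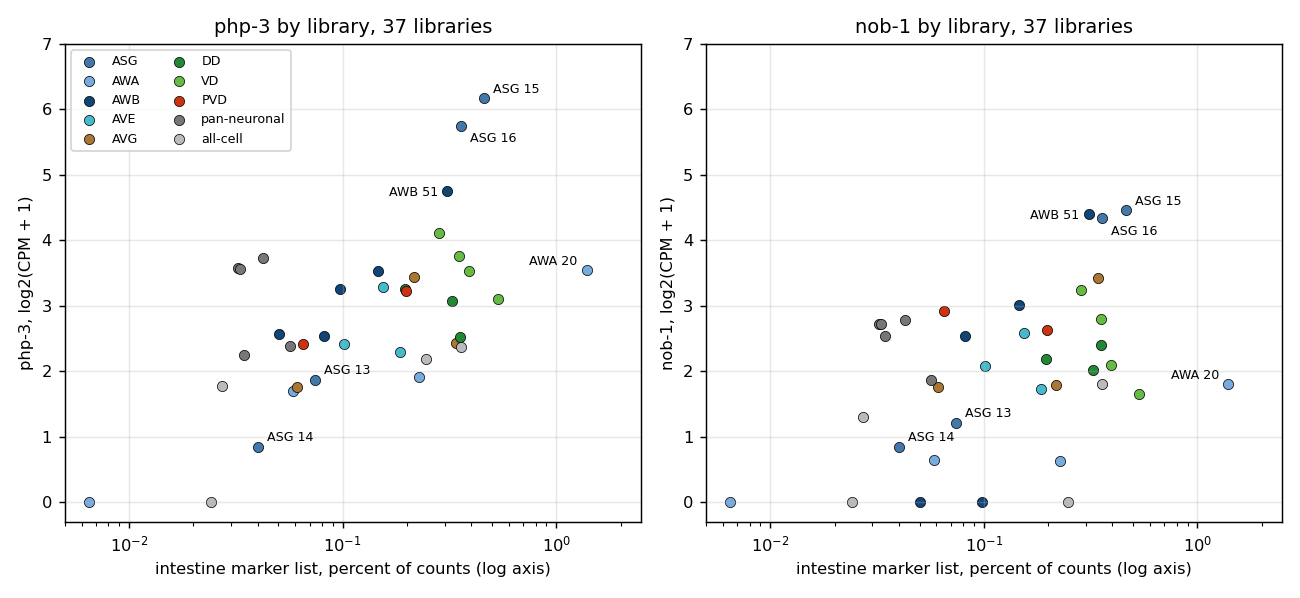
Level of php-3 (left) and nob-1 (right), as log2(CPM + 1), against the summed share of 11 intestine marker genes in percent of counts on a log axis, for 37 libraries coloured by group. ASG 15, ASG 16 and AWB 51 lie at the top of both panels with shares of 0.309 to 0.461%, and ASG 13 and 14 lie low with shares of 0.0740 and 0.0400%; AWA 20 has the largest share, 1.39%, and php-3 at 10.7 CPM.

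The split of reads between the adjacent genes nob-1 and php-3 was described per group, from reads pooled over libraries. Of the reads on either gene php-3 took 75.4% in ASG (exact binomial 95% interval 69.9 to 80.3%, 284 reads), 72.1% in VD (66.5 to 77.2%) and 63.9% in pan-neuronal cells (57.6 to 69.8%). The ASG interval began just above the end of the pan-neuronal one. Of the 214 php-3 reads in ASG, 135 came from ASG 15 and 74 from ASG 16. The share ran from 43.5% in AVG (23.2 to 65.5%, from 23 reads) to 81.2% in AWA (67.4 to 91.1%, from 48 reads). These intervals cover counting error only and not the spread between libraries, so a difference between groups was not tested.

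Between the GABAergic classes no Hox gene was called (0 of 6, with 0.184% of all genes tested called in either direction). At an unadjusted p under 0.05 edgeR gave 1 gene, and the DESeq2 Wald test called 1, in both cases lin-39. DD libraries were 294 to 586 CPM of lin-39 and VD libraries 85.1 to 216, without overlap, for a log2 difference of 1.65 ± 0.43 (edgeR adjusted p = 0.132). The DESeq2 value was 1.68 ± 0.36 (DESeq2 adjusted p = 0.00157), and without ASG 14 edgeR gave 1.75 ± 0.37 (edgeR adjusted p = 0.0259). DD and VD libraries did not overlap for ceh-13 either, with 134 to 190 CPM against 46.5 to 112 CPM and a log2 difference of 1.03 ± 0.52 (edgeR adjusted p = 0.986). Nor did they for lgc-12 and ZK686.1, genes near the cluster that were not called (edgeR adjusted p = 0.986 for both). The share of all genes without such overlap was not counted. For mab-5 the means were 58.3 ± 33.1 (SD, n = 3) and 58.7 ± 31.9 CPM (n = 4), a log2 difference of -0.02 ± 0.60.

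Within the trunk, PVD differed from DD and VD in which Hox genes it held. Of the 6 genes 1 was called higher (4.9% of all genes tested) and 2 lower (1.5%). In PVD ceh-13 was lower, with a log2 difference of -3.68 ± 0.78 (edgeR adjusted p = 0.00131) and so was mab-5, at -3.04 ± 0.86 (edgeR adjusted p = 0.023), with no overlap of libraries for either. The lin-39 difference was 1.34 ± 0.42 (edgeR adjusted p = 0.0483), with overlapping libraries.

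All 3 calls rest on 2 PVD libraries. Without PVD 63 none held, at -2.99 ± 0.98 for ceh-13 (edgeR adjusted p = 0.131), -2.40 ± 1.08 for mab-5 (edgeR adjusted p = 0.444) and 0.78 ± 0.56 for lin-39 (edgeR adjusted p = 0.828). Without PVD 62 mab-5 was -4.53 ± 1.52 (edgeR adjusted p = 0.0844), with library totals alone -2.91 (edgeR adjusted p = 0.0535) and in these groups alone -2.87 (edgeR adjusted p = 0.0515). The lin-39 call also ended without AWA 18 or 19, AVE 41 or 42, AVG 43, DD 83 or 84, VD 77, 79 or 81, pan-neuronal 7, 10, 11 or 12, or all-cell 28, 29 or 30 (1.2 to 1.35, edgeR adjusted p from 0.0507 to 0.125), with library totals alone (1.33, edgeR adjusted p = 0.065) and with no low-count filter (1.39, edgeR adjusted p = 0.0547).

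AVG, whose process shares the ventral cord with DD and VD, had Hox levels in the head range. Of the 6 genes 0 were called against the head types (15.8% of all genes tested in either direction), with 0 also at an unadjusted p under 0.05 in edgeR and 0 by DESeq2. For lin-39 the log2 difference was -0.12 ± 0.51 (edgeR adjusted p = 0.946). AVG 43 carried most of the few reads on ceh-13 (9.73 CPM beside 2.46 and 0), mab-5 and egl-5 (both 7.07 CPM beside 2.46 and 0). Against the trunk types 3 of 6 genes were called lower (3.51% of all genes tested) and 0 higher (6.2%). They were lin-39 at -5.55 ± 0.58, ceh-13 at -3.20 ± 0.69 and mab-5 at -2.82 ± 0.78 (edgeR adjusted p = 7.58e-09, 0.00139 and 0.0149). Without PVD 62 ceh-13 and mab-5 lost their calls (-2.53 and -2.27, edgeR adjusted p = 0.159 and 0.251), and mab-5 did so too without AVG 44 or 45 (-2.63 and -2.38, edgeR adjusted p = 0.0793 and 0.106).

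Among the head types, the interneuron AVE was set against the amphid neurons. No Hox gene was called (0 of 6, with 19.8% of all genes tested called), 1 had an unadjusted p under 0.05 in edgeR and 0 were called by DESeq2. That gene was egl-5, at 0, 7.56 and 6.25 CPM in AVE, with a log2 difference of 1.67 ± 0.74 (edgeR adjusted p = 0.115). Without AVE 40, which had no egl-5 read, it was 2.24 ± 0.74 (edgeR adjusted p = 0.0435), and without ASG 16 it was 2.12 ± 0.75 (edgeR adjusted p = 0.0425).

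The references gave the level of the cluster over all neurons. Between pan-neuronal and all-cell libraries 5 of 6 genes were called higher (32.1% of all genes tested) and 0 lower (26.9%). The largest log2 difference of the 6 was 4.12 ± 0.71 for mab-5, at 23 to 35.8 CPM against 0.840 to 2.67. The values were 3.58 ± 0.72 for egl-5, 3.34 ± 0.44 for lin-39 and 3.20 ± 0.57 for ceh-13 (edgeR adjusted p from 3.43e-07 to 9.54e-05). The libraries of the reference pair overlapped for php-3 only, and the share of all genes without overlap was not counted. For nob-1 the value was 2.25 ± 0.96 (edgeR adjusted p = 0.0438), which missed the threshold with DESeq2 size factors (2.21), with library totals alone (1.82), without VD 77, without pan-neuronal 7, 10, 11 or 12, and without all-cell 28, 29 or 30 (1.77 to 2.54, edgeR adjusted p from 0.0543 to 0.139 over these libraries). For php-3 it was 1.78 ± 0.88 (edgeR adjusted p = 0.0793), and a call without ASG 13 or 14 (1.96, edgeR adjusted p = 0.0406 and 0.0328). In the compared groups alone php-3 was a call too (1.69, edgeR adjusted p = 0.0343).

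Set against the pan-neuronal libraries, egl-5 was called lower in all 8 single types. It was 16.9, 38.3, 40.2, 37.1 and 41.5 CPM in pan-neuronal cells and 24.4 CPM in VD 78, the highest library of any single type. VD overlapped with the pan-neuronal range through that library, and the other 7 types did not. The log2 differences ran from -1.60 ± 0.61 in VD (edgeR adjusted p = 0.0262) through -2.30 ± 0.71 in DD (edgeR adjusted p = 0.0106) to -5.42 ± 0.82 in AWA (edgeR adjusted p = 3e-06). All 8 comparisons share the pan-neuronal libraries. The VD call ended without VD 77, 79 or 81 (-1.27 to -1.63, edgeR adjusted p from 0.0525 to 0.11) and with library totals alone (-1.32, edgeR adjusted p = 0.0847), the DD call without DD 86 (-2.08, edgeR adjusted p = 0.0602), and the PVD call (-3.72 ± 1.06, edgeR adjusted p = 0.0106) without either PVD library (-9.33 and -3.20, edgeR adjusted p = 0.0515 and 0.0857), where the first is a fitted value for a library with 0 reads and no measure of size.

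In ASG 4 genes were called lower (20.8% of all genes tested) and php-3 higher (16.8%) than in pan-neuronal cells. In AWA, AWB, AVE and AVG the same 4 genes, ceh-13, lin-39, mab-5 and egl-5, were lower and 0 were higher (19.8%, 24.1%, 20.5% and 19.7% of all genes lower; 18.1%, 19.6%, 13.1% and 11.7% higher). In AWA nob-1 was at -2.17 ± 0.91 (edgeR adjusted p = 0.0583), a call without AWA 20 (-3.52, edgeR adjusted p = 0.0202) and without ASG 13 or 14 or AWB 50, 51 or 54 (-2.12 to -2.26, edgeR adjusted p from 0.0367 to 0.0462). It was also a call by the DESeq2 Wald test (-2.15, DESeq2 adjusted p = 0.0485) and in the compared groups alone (-2.04, edgeR adjusted p = 0.0263). The same held without both AWA 20 and AWB 51 (-3.40, edgeR adjusted p = 0.0158).

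The php-3 difference in ASG, 1.92 ± 0.73 (edgeR adjusted p = 0.0375), fell below the threshold without ASG 15 (1.15, edgeR adjusted p = 0.282) or ASG 16 (1.58, edgeR adjusted p = 0.12). It did so too without DD 84, VD 81, or pan-neuronal 1, 10, 11 or 12 (1.73 to 2.01, edgeR adjusted p from 0.0505 to 0.0888), with library totals alone (1.94, edgeR adjusted p = 0.0577) and in these groups alone (2.05, edgeR adjusted p = 0.0759).

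In DD 2 genes were called higher (18.3% of all genes tested), ceh-13 by 1.92 ± 0.50 and lin-39 by 1.76 ± 0.40 (edgeR adjusted p = 0.00257 and 0.00075), and egl-5 alone lower (20.8%). In PVD lin-39 was higher by 2.27 ± 0.44 (edgeR adjusted p = 0.000309; 8.85% of all genes), and ceh-13 was lower (-2.27 ± 0.75, edgeR adjusted p = 0.0265; 13.8% of all genes) with egl-5. Without PVD 63 these were 1.47 and -1.82 (edgeR adjusted p = 0.067 and 0.174), and without PVD 62 ceh-13 was -4.34 (edgeR adjusted p = 0.058). With library totals alone ceh-13 was -1.85 (edgeR adjusted p = 0.0905). In PVD mab-5 was at -2.06 (edgeR adjusted p = 0.0755), a call without AWB 51 (-2.03, edgeR adjusted p = 0.049) or AWB 53 (-2.20, edgeR adjusted p = 0.0489). In VD 0 were higher (27.7%) and egl-5 alone was lower (28.5%), with lin-39 at 0.11 ± 0.37 and ceh-13 and mab-5 at 0.89 ± 0.46 and 0.98 ± 0.52 (edgeR adjusted p = 0.812, 0.0996 and 0.109). The mab-5 value in VD became a call without VD 79 (1.31, edgeR adjusted p = 0.0461), and the ceh-13 value with library totals alone (1.19, edgeR adjusted p = 0.0459). In the compared groups alone ceh-13 and mab-5 were calls in VD (0.93 and 1.01, edgeR adjusted p = 0.00132 and 0.0165). In such fits mab-5 was a call in PVD too (-1.86, edgeR adjusted p = 0.00997). The same held for mab-5 in DD (1.02, edgeR adjusted p = 0.0178), at 0.97 with all groups (edgeR adjusted p = 0.176).

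Levels of different genes were compared per kb of counted gene length. In PVD lin-39 made up 95.8% of the summed Hox level per kb (460 CPM per kb), and ceh-13, the next, 1.45% (6.98 CPM per kb). In DD the shares were 61.0% for lin-39, 27.2% for ceh-13 and 9.96% for mab-5, and in VD they were 42.3%, 29.1% and 21.8%. The pan-neuronal shares were 50.3% for lin-39, 20.1% for ceh-13, 14.2% for mab-5 and 11.7% for egl-5. Among these 4 genes the order lin-39, ceh-13, mab-5, egl-5 was the same in pan-neuronal cells and in every single type. It was thus not particular to DD and VD. In ASG, for example, the levels were 3.59, 2.16, 1.97 and 0.778 CPM per kb, from few reads. In all-cell libraries egl-5 (1.79 CPM per kb) stood above mab-5 (1.51). In ASG php-3 led with 61.2% (19.6 CPM per kb), a mean over 4 libraries that differed as given above.

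Across the 37 libraries, the level of ceh-13 as log2(CPM + 1) had a Pearson r of 0.91 with mab-5 and 0.80 with lin-39, and mab-5 had 0.79 with lin-39 and 0.76 with egl-5. The gene nob-1 had 0.77 with its neighbour php-3, and 0.31 to 0.39 with the remaining 4. These are descriptions over libraries that fall into the groups above and share their depth and cell makeup within a library.

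The PBC and MEIS class partners of Hox proteins were taken as a list of 5 genes, of which 4 were tested. In the trunk types 2 were called higher and 0 lower, where 13.4% of all genes tested were called higher and 13% lower. The median log2 difference was 1.58 beside 0.11 over all genes tested. The MEIS gene unc-62 was 383, 336 and 472 CPM in DD, 363, 370, 174 and 297 CPM in VD and 120 and 314 CPM in PVD, while no head library exceeded 83.2 CPM. The PBC gene ceh-20 was 171, 92.6 and 115 CPM in DD, 97.9, 125, 62.8 and 91.7 CPM in VD and 68.0 and 111 CPM in PVD, with head libraries at 43 CPM or less. For neither gene did trunk and head libraries overlap, and the log2 differences were 2.77 ± 0.22 and 2.13 ± 0.20 (edgeR adjusted p = 1.63e-11 and 1.07e-09).

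AVG separated the partners. There ceh-20 was 38.0, 98.2 and 89.1 CPM, higher than in the head types by 1.67 ± 0.29 (edgeR adjusted p = 6.91e-05), with overlapping libraries. In AVG unc-62 was 83.1, 27 and 36.1 CPM, a log2 difference of 0.23 ± 0.34 from the head types (edgeR adjusted p = 0.751) and of -2.55 ± 0.42 from the trunk types (edgeR adjusted p = 3.79e-05). The other PBC and MEIS class genes were scarce: ceh-60 was at most 9.65 CPM and psa-3 at most 5.91 CPM in group means, and ceh-40 did not pass the filter.

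**Figure D4:**
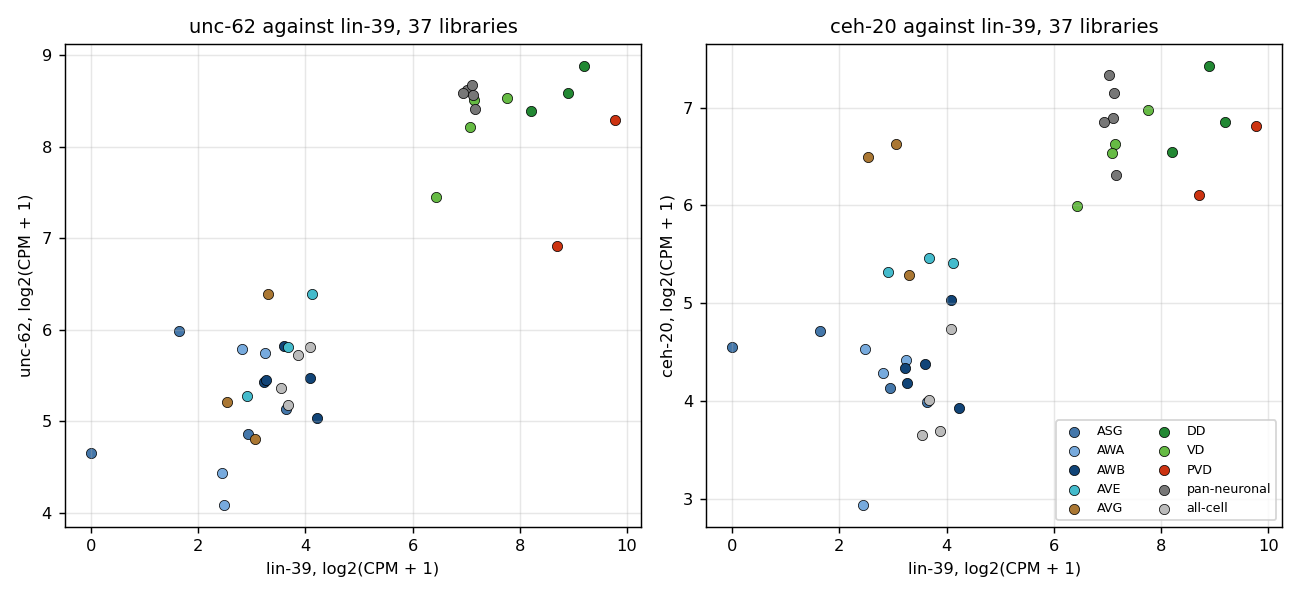
Level of the MEIS gene unc-62 (left) and the PBC gene ceh-20 (right) against lin-39, all as log2(CPM + 1), in 37 libraries coloured by group. The DD, VD, PVD and pan-neuronal libraries lie at the upper right in both panels, and the AVG libraries, with lin-39 at 4.81 to 8.84 CPM, reach 98.2 CPM of ceh-20 and 83.1 CPM of unc-62.

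Of 15 genes of canonical Wnt signalling, an input to Hox transcription, 8 were called higher in the trunk types and 1 lower, where 13.4% of all genes tested were higher and 13% lower (median log2 difference 1.13, beside 0.11 over all genes). The Frizzled receptor genes mig-1 and lin-17 differed by 2.56 ± 0.27 and 2.30 ± 0.25 (edgeR adjusted p = 7.71e-09 and 1.56e-08). The Wnt gene cwn-2 differed by 3.09 ± 0.42 and the beta-catenin gene bar-1 by 2.19 ± 0.30 (edgeR adjusted p = 1.12e-06 and 8.18e-07). As for ceh-13 and mab-5, PVD stood below DD and VD for 3 genes: bar-1 was 11.1 CPM in PVD against 124 in DD and 114 in VD, mig-1 was 20.4 against 171 and 109, and cwn-2 was 7.5 against 52.8 and 35.4 (log2 differences -3.29, -2.78 and -2.55; edgeR adjusted p = 0.000623, 0.00113 and 0.0456). The highest mean of cwn-2 was in AVG, at 151 CPM, where it exceeded the head mean by 5.74 ± 0.43 (edgeR adjusted p = 1.58e-12). The lower gene was the Frizzled gene cfz-2 (-1.10 ± 0.26, edgeR adjusted p = 0.00171), named here after its value was seen.

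Of 10 genes reported to lie downstream of Hox genes 8 were tested. In the trunk types 3 were called higher and 1 lower, the latter close to the 13% of all genes called lower, against 13.4% higher (median 0.84, beside 0.11 over all genes). The migration gene mig-13 was 48.7, 61.1 and 82.1 CPM in DD and 50.2, 40, 28.9 and 32.8 CPM in VD, but 6.28 and 2.18 CPM in PVD, a log2 difference of -3.39 ± 0.77 between PVD and both (edgeR adjusted p = 0.00323). Its high and low types were those of ceh-13 and mab-5, and its trunk difference was 2.20 ± 0.38 (edgeR adjusted p = 4.41e-05). The LIM homeobox gene mec-3, also a PVD marker here, was 286 and 633 CPM in PVD and at most 5.78 CPM in DD and VD. The axon guidance and migration gene vab-8 was higher in the trunk types by 1.16 ± 0.33 and the ephrin gene efn-4 was lower, at -1.18 ± 0.34 (edgeR adjusted p = 0.00757 and 0.00888).

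The repressors and activators of Hox genes were also counted. Of 9 Polycomb-type and related repressors tested, 2 were called higher in the trunk types, mig-32 by 0.82 ± 0.26 and spat-3 by 0.68 ± 0.21 (edgeR adjusted p = 0.0164 and 0.0143). Another 2 were called lower, sop-2 at -1.19 ± 0.29 and lin-40 at -0.85 ± 0.26 (edgeR adjusted p = 0.00257 and 0.0159), and the median was 0.38. Over all genes 13.4% were higher and 13% lower. Of 7 Trithorax-type genes 0 were called in edgeR in either direction (median 0.13, with no adjusted p below 0.0896), and of 3 posterior patterning homeobox genes tested 0 were called (median 0.67, no adjusted p below 0.235).

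Of the 16 annotated genes outside the cluster that lie within 5 kb of a Hox gene 5 passed the low-count filter. Closest to ceh-13 on the right, 4131 bases away and on the same strand, lies lgc-12, which encodes a ligand-gated ion channel subunit. It was 187 and 332 CPM in PVD, 68.1, 37.2 and 52.1 CPM in DD, 36.2, 28, 22.8 and 33.7 CPM in VD and 20.3, 19.6 and 31.3 CPM in AVG, while the highest head library was at 2.89 CPM. Trunk and head libraries did not overlap. The trunk log2 difference of 6.86 ± 0.39 (edgeR adjusted p = 2.24e-15) ranked 2nd of all genes tested, ahead of lin-39. Unlike ceh-13, lgc-12 was higher in PVD than in DD and VD, by 2.70 ± 0.46 (edgeR adjusted p = 7.07e-05).

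Next to mab-5, 802 bases away on the same strand, bath-15 was higher in DD and VD than in the head types by 2.41 ± 0.48 and 2.02 ± 0.44 (edgeR adjusted p = 0.000495 and 0.000816). In PVD it was 5.23 and 0 CPM, a log2 difference of -0.11 ± 0.89 from the head types. Beside lin-39 the DNA ligase gene lig-4 (-0.15 ± 0.17) and beside php-3 the doublecortin-like kinase gene zyg-8 (-0.47 ± 0.21) were not called in the trunk comparison, nor was ZK686.1 beside mab-5 (-0.40 ± 0.27; edgeR adjusted p = 0.554, 0.0905 and 0.287). In VD alone ZK686.1 was lower than in the head types, at -0.99 (edgeR adjusted p = 0.0294). Annotated antisense transcripts inside lin-39, C07H6.14 and C07H6.18, had 15 and 18 reads over all libraries beside 10452 on lin-39, and C08C3.10 inside egl-5 had 7 beside 941. Whether counting used strand is not given in the sources used here, so reads from overlapping antisense transcripts cannot be told apart.

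**Figure D5:**
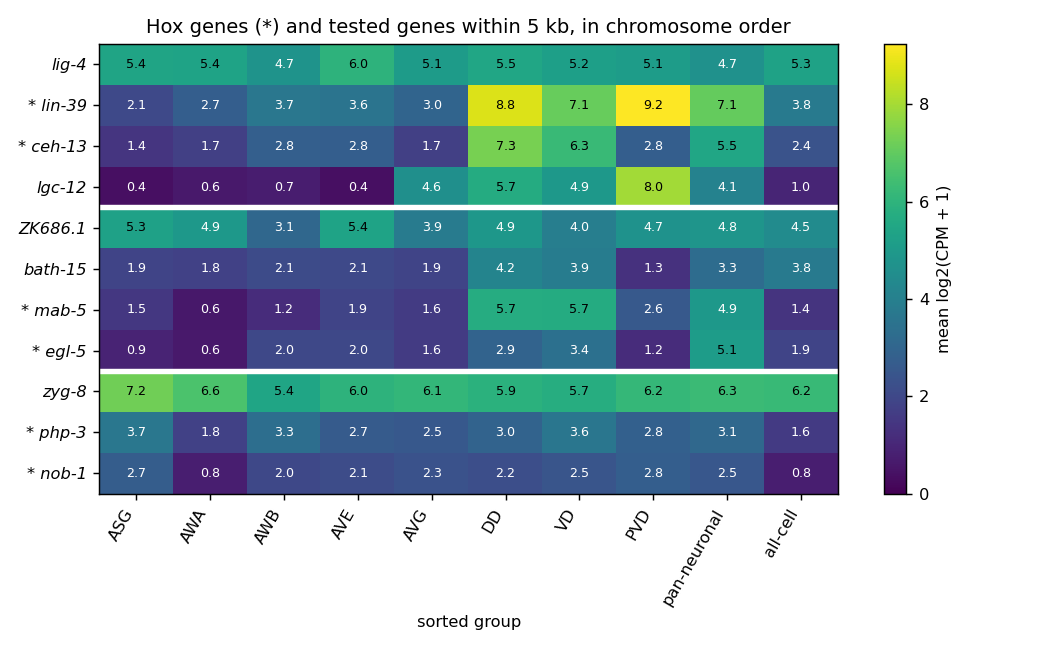
Group mean of log2(CPM + 1) for the 6 Hox genes (marked with an asterisk) and the 5 other tested genes within 5 kb of them, in chromosome order from top to bottom; white lines separate the lin-39 and ceh-13, mab-5 and egl-5, and php-3 and nob-1 regions. The rows of lin-39 and lgc-12 are brightest in PVD, those of ceh-13 and mab-5 in DD and VD, and lig-4, at a mean of 37.9 CPM in trunk types and 43.7 in head types, shows no such contrast.

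The 3 tested genes most alike in level to each Hox gene were ranked by Pearson r of log2(CPM + 1) over the 37 libraries, as a description. For lin-39 they were unc-5, the netrin receptor (r = 0.943), Y64G10A.7 (0.924) and unc-62 (0.896). The unc-5 means were 466 CPM in DD, 309 in VD and 348 in PVD, against 12.1 to 36.2 in the head types. For ceh-13 they were the T-box gene mab-9 (0.933), the potassium channel gene twk-43 (0.930) and the lysozyme gene ilys-4 (0.930), and mab-9 was highest in DD and VD (62.3 CPM in VD) and 2.14 CPM in PVD. For mab-5 the closest was ceh-13 itself (0.905), before cpd-2 (0.904) and ttr-39 (0.892).

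The genes most like egl-5 were lgc-35 (0.886), nlp-17 (0.868) and nep-21 (0.856), which also peaked in pan-neuronal cells, with 410 CPM of the neuropeptide gene nlp-17 there and at most 50.4 CPM in a single type. For nob-1 they were php-3 (0.769), Y51H4A.24 (0.745) and the chemoreceptor-family gene srw-86 (0.668), and for php-3 they were B0035.13 (0.827), C49C8.5 (0.809) and the tubulin gene tba-7 (0.804). Over the 10 group means in place of libraries, unc-5 (0.977) and mab-9 (0.996) stayed first for lin-39 and ceh-13, and the first gene changed to T23D8.13 (0.976) for mab-5, mrrf-1 (0.973) for egl-5, Y54G2A.40 (0.925) for nob-1 and C49A9.5 (0.897) for php-3.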

How the data were processed

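RNA of 37 sorted cell samples was measured as gene counts. The authors deposited one table of unscaled, whole-number counts for 30631 genes. STAR, SAMtools and featureCounts are named in the submitters' processing notes; no version, setting, strand use or genome build is given in the sources used here. The deposited name carries annotation release WS274. Positions were taken from WBcel235 by gene identifier, and lengths from the deposited table. Groups came from the titles.

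A single model of the 10 groups was fitted to every library by edgeR's quasi-likelihood method (version 4.0.16, R 4.3.3, TMM factors, filterByExpr by group, common dispersion 0.226, 6.63 prior degrees of freedom) in 18 contrasts, each adjusted by Benjamini-Hochberg over 15181 genes and called at an adjusted p under 0.05. The script was tested on simulated counts. CPM are counts scaled by library total and TMM factor; plots and correlations use a pseudocount of 1. The members, lists, markers and alternatives, and the leaving out of AWA 20 with AWB 51, were chosen with earlier results of these data known. Named genes are the 6 members, their neighbours within 5 kb, the 3 genes most like each, and up to 4 called members of a list by size of log2 difference. Rows for cog-1 and mes-2 were not analysed here, and 2 marker symbols were not matched. Library totals ran from 251586 to 5415925 counts (median 1638118). Library pairs within a group differed by a chi-square of 2.22 to 85.9 per degree of freedom (54 pairs), and all were kept. Intervals cover counting error only. Alternatives were DESeq2 size factors, library totals, the DESeq2 1.42.0 Wald test, no low-count filter, a fit without 34 mitochondrial and rRNA genes, a fit of only the groups compared, each library omitted in turn, and AWA 20 with AWB 51 left out.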

Additional observations from a re-analysis of the deposited data

Results flagged for a closer look

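In 36 combinations of a Hox gene and a group of 4 or 5 libraries, 3 held a library far from the rest of its group by Dixon's test; chance flags about 1 in 20. In ASG, ceh-13 was 7.10 CPM (10 reads) in ASG 16 and 0.528 to 1.33 CPM in the others. In pan-neuronal libraries egl-5 was 16.9 CPM in pan-neuronal 1 and 37.1 to 41.5 CPM in the other 4. Touch neuron markers summed to 0.234% in pan-neuronal 1 and 0.629 to 0.702% in the other 4. In AWB, php-3 was 26.0 CPM in AWB 51 and 4.80 to 10.6 CPM in the others. AWB 51 also held the largest nob-1 and mab-5 values of its group, 20.2 and 11.6 CPM, and its intestine and hypodermis marker shares were 0.309% and 0.131%, the largest of the AWB libraries. Its pharynx and body-wall muscle shares, 0.373% and 3.25%, were the largest too. The part of these markers was not tested.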

How the results depend on the processing

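The counts of called Hox genes were 4 of 6 for VD against head types, 4 for AVE, AVG and AWB against pan-neuronal cells, and 0 for AVG against head types, with each single library left out. Leaving out 1 library at a time gave 2 to 4 called genes for trunk against head (4 with all libraries), 1 to 3 for AVG against trunk (3), 0 to 1 for AVE against amphid types (0) and for DD against VD (0), 0 to 3 for PVD against DD and VD (3), 0 to 4 for PVD against pan-neuronal cells (3) and 0 to 1 for VD against pan-neuronal cells (1). Without AWA 20 and AWB 51 the count was 2 for PVD against head types and 2 for VD against pan-neuronal cells, where fitting the compared groups alone gave 3. The DESeq2 Wald test gave 1 for DD against VD, and library totals alone gave 1 for PVD against DD and VD. For VD against pan-neuronal cells library totals also gave 1, but ceh-13 (1.19) in place of egl-5 (-1.32). The trunk difference of egl-5 ranged from -0.32 without PVD 62 to 1.95 without ASG 16. Causes were not tested, except that PVD then rests on 1 library, with 0 reads on egl-5. Over all tests of single Hox genes, other settings gave 724 same calls, 13 lost and 13 gained.

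Numbers of all genes called moved by over 1.5 times in some fits. For trunk against head 3999 fell to 2304 at the lowest with a library left out. The count for DD against head was 2005, 1255 to 2840 with a library left out and 3669 without AWA 20 and AWB 51. For DD against VD it was 28, 5 to 38 with a library left out, 91 by DESeq2, 2 in the compared groups alone and 53 without AWA 20 and AWB 51. Leaving out a library gave 483 at the lowest for PVD against head (1270), 892 for AVG against trunk (1474), 1877 for AVE against amphid types (3007), 429 for PVD against DD and VD (971) and 965 for PVD against pan-neuronal cells (3436, or 5569 in the compared groups alone). AVE against pan-neuronal cells went from 5101 to 7762 in the compared groups alone, and VD against pan-neuronal cells from 8538 to 13265 with no filter. The scaling also moved the share of calls that were higher. It was 50.8% for trunk against head, 39% with DESeq2 size factors and 65.3% with library totals; 51.1% and 38% with size factors for DD against head; 60.4% and 44.4% with size factors for VD against head; 63.8% and 43.5% with library totals for AVG against trunk; and 54.4% and 42.6% with library totals for pan-neuronal against all-cell libraries. In comparisons with pan-neuronal cells it went with library totals from 46.7% to 57.1% for DD and from 39.1% to 53.3% for PVD. The median log2 difference over all genes in VD against head was 0.236, and 0.063 and 0.425 with size factors and library totals. In the same order it was 0.161, 0.008 and 0.326 for DD against head, -0.229, -0.109 and -0.476 for AVG against trunk, -0.296, -0.111 and -0.248 for PVD against DD and VD, and -0.001, -0.067 and -0.466 for pan-neuronal against all-cell libraries.

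Depth limited the low genes, with group sums of 4 reads for egl-5 in PVD (3.24 CPM by library totals, exact Poisson 95% interval 0.884 to 8.31) and 5 for mab-5 in AWA (0.674, 0.219 to 1.57). Small differences among low groups may be missed at this depth. The mab-5 interval of AWA overlapped with those of ASG (0.931 to 2.99) and all-cell libraries (0.948 to 3.64). It lay below those of AWB (1.77 to 6.36), AVE (1.79 to 6.4), AVG (1.98 to 8.23) and PVD (4.45 to 16). Such intervals leave out the spread between libraries. No paired analysis was possible because library numbers are not shared between groups and the labels give no batch.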
